A study of Mus musculus with 4 samples.

Results

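The genes that copy DNA were followed in cultured fetal mouse male germ cells, as a set of 37 named genes out of 36088 in the deposited table: the helicase genes Mcm2 to Mcm7, their loading and activating factors, the replicative polymerases and primase, the sliding clamp and its loader, a nuclease and a ligase, and 3 genes that drive entry into S phase. They were chosen by name with earlier results of these data known, and each symbol was found once in the table. The cells were wild-type (WT) germ cells, taken by sorting after fetal testes had been kept in culture. DMSO, the control, was added for 2 libraries, and CBR-5884, which the design text names as an inhibitor of the metabolism of serine, for the other 2. All 4 sample titles begin with the letters VR and give day 14, and the titles do not say what either stands for. The design text calls the libraries of a condition biological replicates. The sources used here do not state dose, exposure time or how many testes made up a library. The table names the libraries by condition and the number 2 or 4, and those names are used below. The stated question was about serine metabolic pathways during male germ cell differentiation.

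DNA is copied once per cell division. In G1 the origin recognition complex, with Cdc6 and Cdt1, loads the ring of Mcm2 to Mcm7 onto DNA as an inactive double ring, a step called licensing. Cdc45 and the GINS tetramer then turn each ring into the active helicase, primase and polymerase alpha lay down primers, the loader Rfc places the clamp Pcna, and the polymerases delta and epsilon extend the strands. Transcription of many of these genes rises at the border of G1 and S phase under the E2F factors, and the synthesis of DNA draws on nucleotides whose one-carbon units come in part from serine.

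Sequences around the start sites of replication genes carry sites of the E2F type. They are shown here for helicase genes, a choice made because all 6 of these lay in one direction in the comparison given below. So did the 6 polymerase and primase genes, and the nuclease and ligase genes Fen1 and Lig1. RefSeq windows on GRCm38.p6, each from 250 bases before to 50 bases after a start site, were found for 29 of the 37 genes. The search took the letters TTTCCCGC, TTTCGCGC, TTTGCCGC and TTTGGCGC on both strands and counted overlapping matches separately. A match was present for 13 of the 29 genes (44.8%), against 2.6% of all 27025 genes with a window and 4.8% of the 10656 such genes with a mean of at least 1 TPM, the length-adjusted measure of a gene's share of the transcripts in a library. The 13 were Mcm3, Mcm5, Mcm6, Mcm7, Gins3, Orc1, Orc3, Cdc6, Cdt1, Pola1, Pold1, Rfc3 and Lig1. Of the helicase genes, Mcm2 had a window without a match and Mcm4 had no window, so neither is shown. The stretches below run 5′ to 3′ on the strand of the gene, and capitals mark the matches. Rfc3, a clamp loader gene, is added as a gene with matches next to its start site that was not lower in the comparison.
Mcm3, chr1:20820283-20820402, minus strand: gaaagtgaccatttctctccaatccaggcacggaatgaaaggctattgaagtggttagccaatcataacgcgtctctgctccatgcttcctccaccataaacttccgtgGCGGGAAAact
Mcm5, chr8:75109268-75109387, plus strand: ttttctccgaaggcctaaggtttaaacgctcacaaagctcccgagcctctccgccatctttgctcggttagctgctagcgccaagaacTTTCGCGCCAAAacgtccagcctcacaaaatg
Mcm6, chr1:128359725-128359844, minus strand: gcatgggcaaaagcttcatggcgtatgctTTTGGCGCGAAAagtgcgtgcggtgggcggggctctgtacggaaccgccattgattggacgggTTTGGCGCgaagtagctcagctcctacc
Mcm7, chr5:138171854-138172060, minus strand: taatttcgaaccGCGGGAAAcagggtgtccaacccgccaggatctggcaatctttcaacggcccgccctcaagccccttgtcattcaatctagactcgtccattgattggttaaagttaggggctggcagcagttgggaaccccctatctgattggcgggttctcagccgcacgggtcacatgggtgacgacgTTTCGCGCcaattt
Rfc3, chr5:151651181-151651300, minus strand: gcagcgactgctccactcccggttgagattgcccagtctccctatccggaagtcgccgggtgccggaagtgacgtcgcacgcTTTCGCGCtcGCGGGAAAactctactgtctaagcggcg
In Mcm5 and Mcm6 a forward and a reverse match overlap, so that the capitals form 1 run of 12 bases. Mcm3 has a further match that begins at base 39 of its transcript and lies outside the stretch shown. Mcm7 has 2 windows and the matches lie in 1 of them. A match describes the letters only, and nothing in these data measures binding. A CCAAT box was present for 17 of the 29 genes, 58.6%, against 44.0% of the windowed genes with at least 1 TPM, and the GC box GGGCGG for 22 (75.9%), against 68.6%. The letters TTTGAA, the CHR element of many mitotic genes, were present for 4 (13.8%), against 14.3%.

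The libraries were taken to hold germ cells from their markers. Estimated depth was roughly 22400000 to 28200000 reads per library, inferred from the value that single reads take among low genes with 1 transcript. Of 8 germ cell markers 7 had means of 91.1 to 898 TPM, led by Dazl, while Dppa3 was at 0.48 to 1.24 TPM. All 7 had positive fold changes with CBR-5884 in the comparison below, with a median of 0.05 on the log2 scale. Of all 14920 genes tested there, 7035 were positive. Dazl and Rnf17, 2 of the 7 markers, lay higher without overlap, against 13.6% of all tested genes. Any part of the germ cell markers in the lower values of the replication genes was not tested. The 32 markers of Sertoli, Leydig, peritubular, endothelial, macrophage, stromal and red blood cells summed to 390 and 247 TPM in DMSO libraries 2 and 4 and to 338 and 298 TPM in CBR-5884 libraries 2 and 4, most of it from Sertoli cell genes such as Clu, and the red blood cell markers Hba-a1 and Hbb-bt were at 0. The summed somatic level did not order the libraries by condition. Since dividing somatic cells use the same replication genes, any part of these cells in the values below was not tested.

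All 37 genes were expressed in every library and stood above the 50th percentile of the 14920 genes tested, 11 of them above the 90th. Their means ran from 21.5 TPM for Gins3 to 415 TPM for Mcm7, with a median of 105 TPM, where the median over all tested genes was 21.4 TPM. In the sum of their TPM the conditions did not overlap, at 4940 and 5016 with DMSO and 4803 and 4697 with CBR-5884, or 0.493 and 0.502% against 0.481 and 0.486% of each library's TPM. The sum over all tested genes did not overlap either. Nor did that of the 7104 tested genes in the same range of levels, at 620336 and 608043 TPM against 607313 and 595187 TPM. In units of 1 read among single-transcript genes, a single value was 234 for Ccne1 at the least and 14157 for Mcm5 at the most. Taken as reads, these would give counting errors of about 6.54 and 0.84%. Where a gene has several transcripts the unit need not be 1 read, and these errors may not apply. Mcm5 had 12228 to 14157 at a mean of 240 TPM and 3993 exonic bases. Mcm7 had 6368 to 7137 at 415 TPM and 4426 exonic bases.

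**Figure D1:**
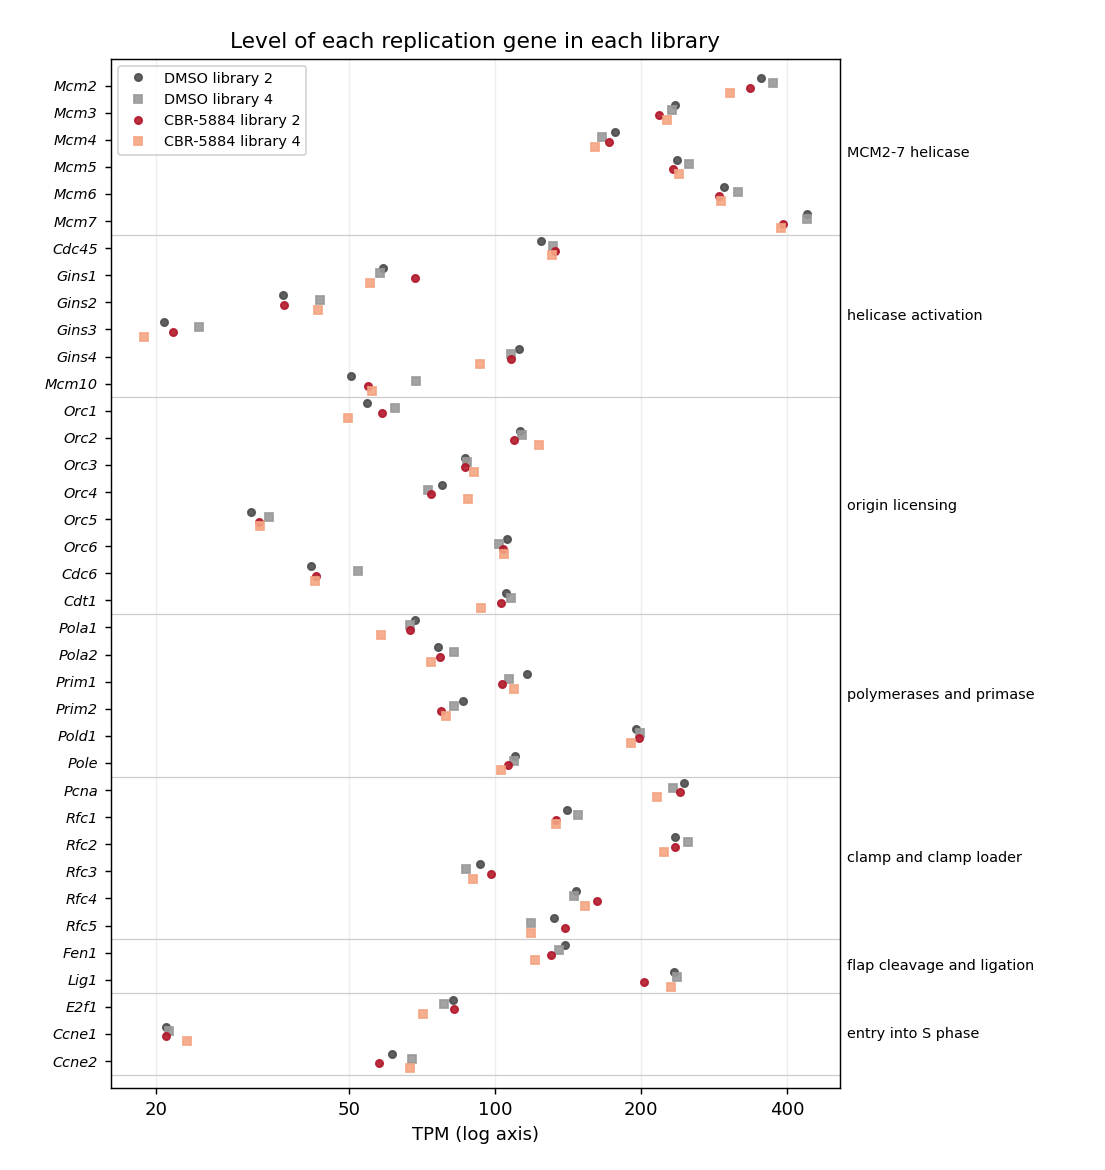
TPM of each of the 37 replication genes (rows, grouped by role) on a log axis, with 1 point per library: dark and light grey for DMSO libraries 2 and 4, dark red and light orange for CBR-5884 libraries 2 and 4. The 4 points of a gene lie close together compared with the distance between genes, which spans 21.5 to 415 TPM, and the groups separate for 12 of the 37 genes.

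Between CBR-5884 and DMSO these genes differed little, and the small differences lay more often on the lower side. A log2 fold change here is the difference of mean log2(TPM + 1), negative where CBR-5884 is lower, from a limma fit over all tested genes with p-values adjusted over all of them. It was negative for 27 of the 37 genes (73.0%), against 52.8% of all tested genes and 57.7% of the 7104 tested genes whose mean lay between 21.5 and 415 TPM. The median was −0.07, with a range of −0.19 for Mcm2 to 0.11 for Rfc4, and the median over all tested genes was −0.01. The cause of the lower side was not tested, and its size varied with the scaling and the libraries used, as given below. In bulk libraries fewer cells in S phase and less of these mRNAs per cell cannot be told apart. With limma 0 of the 37 passed an adjusted p of 0.05, as did 0% of all tested genes. An unadjusted limma p under 0.05 was found for 1 of the 37, Mcm7, which was lower, against 3.66% of all tested genes, 2.15% of them lower and 1.51% higher. Every library of CBR-5884 lay below every DMSO library for 11 of the 37 genes (29.7%), against 17.7% of all tested genes and 20.5% of those in the same range of levels. These 7104 genes share the range and not the distribution of levels, with a median of 60.1 TPM. Every library of CBR-5884 lay above for 1 gene, Rfc4 (2.7%), against 13.6 and 11.3%.

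The precision of single genes bounds these differences. The 95% intervals held 0 for 36 of the 37 genes, and all 37 intervals lay within 1.5-fold either way. The narrowest was that of Mcm7, at ± 0.17 on the log2 scale, and the widest that of Mcm10, at ± 0.37. The median SD between libraries of 1 condition was 0.071 for these genes on the log2 scale, and 0.096 for the tested genes within the same range of levels, whose median level was lower (60.1 against 105 TPM).

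**Figure D2:**
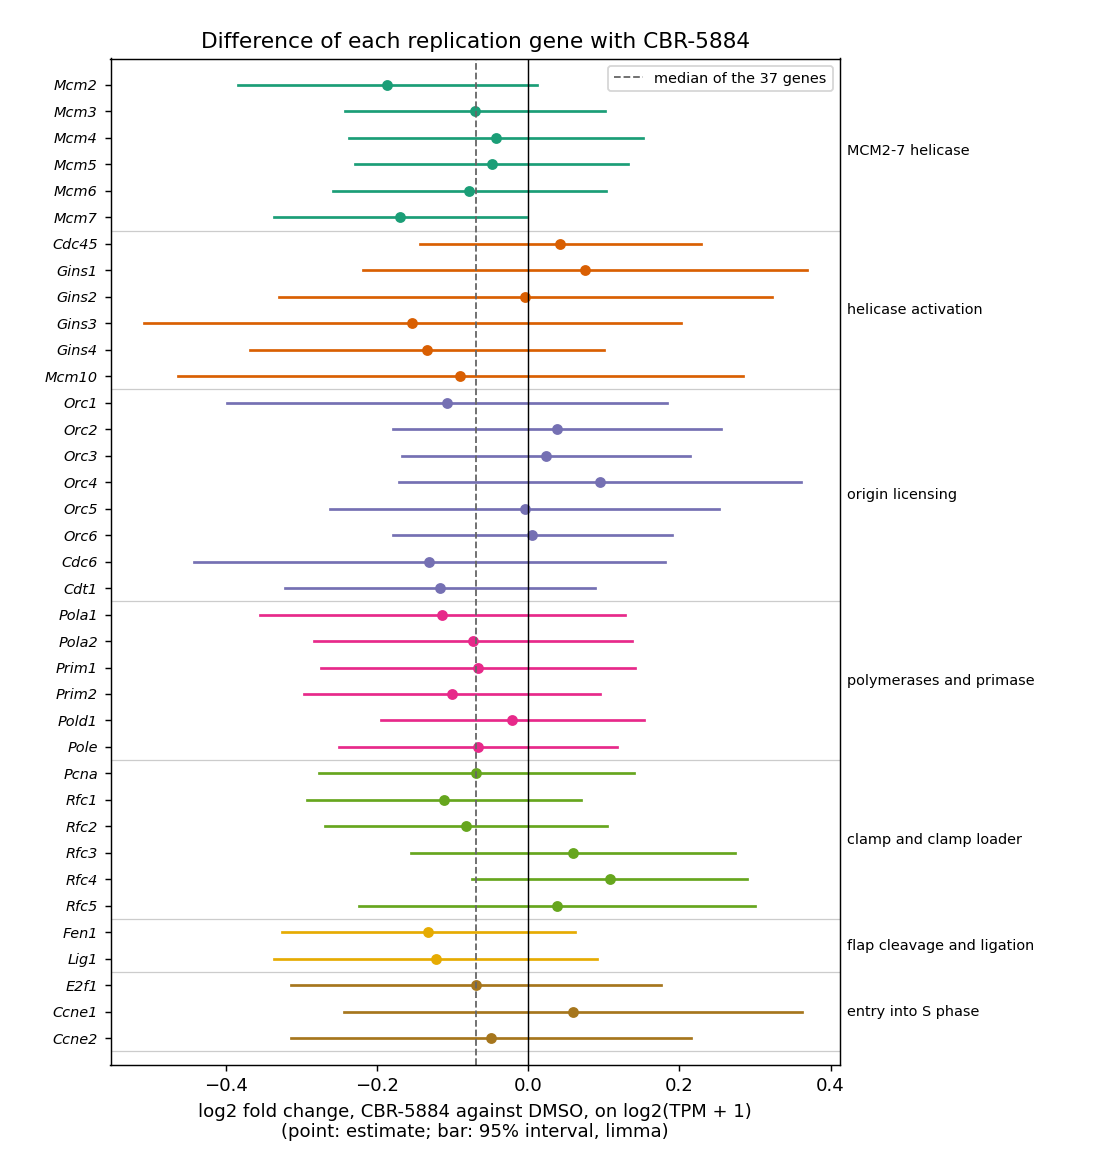
Log2 fold change of each replication gene with CBR-5884 against DMSO (points) with its 95% interval (bars) from limma, coloured by role, with 0 as a solid line and the median of the 37 genes, −0.07, as a dashed line. The 6 helicase genes and the 6 polymerase and primase genes all lie left of 0 (Pold1 turns positive with equal TPM totals), and only the bar of Mcm7 ends short of 0.

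The genes of the Mcm2 to Mcm7 ring were the most abundant of the roles and all 6 lay lower with CBR-5884 when all 4 libraries were used, by 2.92 to 12.1% of the DMSO mean. Mcm7, on chromosome 5 from 138164583 to 138172422, had 439 and 439 TPM in DMSO libraries 2 and 4 and 392 and 388 TPM in CBR-5884 libraries 2 and 4. Both CBR-5884 libraries were low and the libraries of a condition were nearly equal, so the means of 439 ± 0.043 and 390 ± 2.81 TPM (SD, n = 2) differed by 11.1%. The log2 fold change was −0.17 (SE 0.07, 95% interval −0.34 to −0.0025, limma unadjusted p = 0.0476, adjusted p = 0.998). The unadjusted limma p, at adjusted values near 1, was 0.0508 with a minimum mean of 5 TPM and 0.156 with no trend in the variance. Of the 31-base words of Mcm7, 30.9% also occur in other genes, 24.4% in the pseudogene Gm5487. The sum of Mcm7 and Gm5487 was 447 and 442 TPM with DMSO and 398 and 395 TPM with CBR-5884, so the groups stayed apart when both were added. Exons of Mcm7 also overlap 321 bases of Ap4m1 on the other strand, which had a mean of 42.2 TPM and is not in this sum.

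Mcm2, whose product is a regulatory subunit of the ring and also binds histones (chromosome 6, 88883474 to 88898780), had 354 and 375 TPM with DMSO and 335 and 306 TPM with CBR-5884. Its means of 364 ± 14.4 and 320 ± 20.5 TPM (SD, n = 2) differed by 12.1%, with no overlap, and its log2 fold change was −0.19 (95% interval −0.38 to 0.01, limma adjusted p = 0.998). Mcm6 (chromosome 1, 128331590 to 128359664) had 296 and 317 TPM with DMSO and 289 and 292 TPM with CBR-5884. Mcm3 (chromosome 1, 20802968 to 20820312) had 235 and 232 TPM against 218 and 227 TPM. In both genes the groups did not overlap, with little distance between the nearest libraries. Mcm5 (chromosome 8, 75109569 to 75128439) had 237 and 252 TPM against 232 and 240 TPM, and Mcm4 (chromosome 16, 15623897 to 15637400) had 176 and 166 TPM against 172 and 160 TPM, so these overlapped. The summed TPM of the 6 genes was 1738 and 1781 with DMSO and 1638 and 1614 with CBR-5884.

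The subunits of the ring are assembled in equal number, while their mRNA levels per length were not equal. Mcm7 was highest and Mcm4 lowest, 2.46 times apart in the mean over libraries, and the order Mcm7, Mcm2, Mcm6, Mcm5, Mcm3, Mcm4 was the same in all 4 libraries. The ranges of Mcm2 and Mcm6 and those of Mcm5 and Mcm3 overlapped, and the other neighbours did not. Mcm7 made up 25.3 and 24.7% of the summed TPM of the ring with DMSO and 23.9 and 24.1% with CBR-5884, while Mcm4 made up 10.2 and 9.31% against 10.5 and 9.94%.

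Genes that turn the loaded ring into a running helicase were of lower abundance and showed no common direction. Cdc45, the helicase cofactor, had 124 and 132 TPM with DMSO and 133 and 131 TPM with CBR-5884. Gins4, a GINS subunit, had 112 and 108 TPM against 108 and 93.1 TPM, the 1 gene of this role with groups apart, though by less than 1 TPM between the nearest libraries. Mcm10, which helps to fire origins and binds polymerase alpha, had 50.4 and 68.9 TPM against 54.8 and 55.9 TPM. Its DMSO libraries enclosed both CBR-5884 values, and that spread gave it the widest interval of the set.

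The other GINS subunits overlapped between the conditions. Gins1 had 58.7 and 57.9 TPM with DMSO and 68.3 and 55.3 TPM with CBR-5884, and Gins3 had 20.8 and 24.6 TPM against 21.7 and 18.9 TPM. Gins2 had 36.6 and 43.6 TPM against 36.8 and 43.2 TPM, a log2 fold change of −0.0036 (95% interval −0.33 to 0.32). The value of Gins2 is uncertain, because 66.2% of its 31-base words lie in exons of Gse1 on the other strand and the sources used here do not state whether the counting used strand. Although the 4 subunits form a tetramer with 1 copy of each, Gins4 was 4.89 times as abundant as Gins3 per length, and the order Gins4, Gins1, Gins2, Gins3 held in all 4 libraries with no overlap between neighbours.

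Licensing genes split evenly, with 4 negative and 4 positive fold changes and a median of 0.00. The 6 genes of the origin recognition complex summed to 469 and 472 TPM with DMSO and to 465 and 489 TPM with CBR-5884, and the groups overlapped for each of the 6. Orc2 had 113 and 114 TPM against 109 and 124 TPM, and 27.9% of its words are shared with Nif3l1 on the other strand. Orc6, which joins the core complex more loosely, had 106 and 102 TPM against 104 and 104 TPM. Orc3 had 86.8 and 87.5 TPM against 86.9 and 90.4 TPM, so none of these 3 separated the conditions.

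Among the less abundant subunits Orc4 had 77.9 and 72.9 TPM with DMSO and 73.9 and 87.9 TPM with CBR-5884. Orc1, the subunit whose level is tied to the cell cycle, had 54.5 and 62.1 TPM against 58.4 and 49.8 TPM. Orc5 had 31.5 and 34.2 TPM against 32.6 and 32.7 TPM, the lowest level of the complex, 3.50 times below Orc2. The order Orc2, Orc6, Orc3, Orc4, Orc1, Orc5 held in all 4 libraries, and only Orc3 and Orc4 overlapped among neighbours.

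The loaders that bring the ring to the origin were both lower in the mean. Cdt1, which carries the ring and is destroyed once S phase begins (chromosome 8, 122568015 to 122573554), had 105 and 108 TPM with DMSO and 103 and 93.8 TPM with CBR-5884, with no overlap and a log2 fold change of −0.12 (95% interval −0.32 to 0.09). Cdc6, the ATPase that works with the origin complex, had 41.9 and 52.3 TPM against 42.7 and 42.6 TPM. Its difference rests on DMSO library 4 alone, and without that library the log2 fold change was 0.03.

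Polymerase and primase genes all lay lower with CBR-5884, by 1.42 to 7.46% of the DMSO mean, and the median log2 fold change of the 6 was −0.07. Pold1 turned to 0.0064 with equal TPM totals and to 0.0076 without CBR-5884 library 4, so the direction was not common to all 6 there. Prim2, the large primase subunit (chromosome 1, 33453810 to 33669795), had 86.1 and 82.3 TPM with DMSO and 77.4 and 79.4 TPM with CBR-5884. Pole, the catalytic subunit of the leading strand polymerase (chromosome 5, 110286306 to 110337474), had 110 and 109 TPM against 107 and 103 TPM. These were the 2 of the 6 with groups apart.

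Prim1, the catalytic primase subunit, had 116 and 107 TPM with DMSO and 103 and 110 TPM with CBR-5884. Pola1, the catalytic subunit of polymerase alpha, had 68.4 and 66.7 TPM against 66.7 and 58.3 TPM, and its partner Pola2 had 76.3 and 82.5 TPM against 77.0 and 73.8 TPM. Pold1, the catalytic subunit of the lagging strand polymerase and the most abundant of the 6, had 195 and 199 TPM against 198 and 191 TPM. It was 1.78 to 1.86 times as abundant as Pole in each of the 4 libraries, so this ratio between the strand polymerases was nearly constant.

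Clamp and clamp loader genes lay on both sides of 0. Pcna, the ring that tethers polymerases to DNA (chromosome 2, 132249162 to 132253314), had 245 and 233 TPM with DMSO and 241 and 215 TPM with CBR-5884. Its value depends on the processed copy Pcna-ps2, which holds 23.3% of its words and was listed at 131 and 157 TPM against 145 and 156 TPM. The sum of both was 376 and 389 TPM with DMSO and 386 and 372 TPM with CBR-5884, which overlapped.

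Rfc1, the large subunit of the loader (chromosome 5, 65261850 to 65335670), had 141 and 148 TPM with DMSO and 134 and 133 TPM with CBR-5884, with no overlap and a log2 fold change of −0.11 (95% interval −0.29 to 0.07). Rfc4, a small subunit of the same loader (chromosome 16, 23113943 to 23127737), had 147 and 145 TPM against 162 and 153 TPM, the 1 gene of the 37 that was higher in both CBR-5884 libraries, with a log2 fold change of 0.11 (95% interval −0.07 to 0.29). Of the words of Rfc4, 10.5% are shared with Eif4a2 on the other strand. Rfc2, Rfc3 and Rfc5 overlapped between the conditions, and 19.2% of the words of Rfc2 and 19.3% of those of Rfc5 occur in other genes. Rfc2 had 235 and 250 TPM against 235 and 223 TPM, Rfc3 had 93.2 and 87.3 TPM against 98.2 and 90.1 TPM, and Rfc5 had 132 and 119 TPM against 139 and 119 TPM. Subunits of 1 loader thus had fold changes of both signs, and Rfc2 was 2.56 times as abundant per length as Rfc3.

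Both enzymes that finish the lagging strand were lower in each CBR-5884 library. Fen1, which removes the flaps left by primers (chromosome 19, 10199132 to 10204169), had 140 and 136 TPM with DMSO and 131 and 121 TPM with CBR-5884, a log2 fold change of −0.13 (95% interval −0.33 to 0.06). Lig1, which seals the nicks (chromosome 7, 13277283 to 13311433), had 234 and 237 TPM against 203 and 231 TPM, a log2 fold change of −0.12 (95% interval −0.34 to 0.09). Most of the difference in Lig1 came from CBR-5884 library 2, and without that library it was −0.03.

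Genes that drive entry into S phase overlapped between the conditions. E2f1, an activating member of the E2F family, had 81.8 and 78.6 TPM with DMSO and 82.3 and 70.9 TPM with CBR-5884. Cyclin E, the partner of Cdk2 at the start of S phase, was mainly Ccne2, at 61.3 and 67.3 TPM against 57.7 and 66.8 TPM. Ccne1 had 20.97 and 21.3 TPM against 20.97 and 23.2 TPM, and Ccne2 was 2.75 to 3.16 times as abundant as Ccne1 in each library. Of the words of Ccne2, 15.6% are shared with Ints8 on the other strand, which leaves that ratio uncertain.

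The lower side was unevenly spread over the libraries. Measured as the deviation of each gene from its own mean over the 4 libraries, the median of the 37 genes was 0.00 in DMSO library 2 and 0.04 in DMSO library 4, and −0.01 in CBR-5884 library 2 and −0.04 in CBR-5884 library 4, on the log2 scale. DMSO library 4 was the highest of the 4 for 17 of the 37 genes and CBR-5884 library 4 the lowest for 17. Without DMSO library 4 the median log2 fold change was −0.03, with 13 genes positive, and without CBR-5884 library 4 it was −0.04. CBR-5884 library 4 also had the smallest TPM total, 966761 against 997741 to 1002976 in the others, and with totals set equal the median was −0.04, with 13 genes positive, where the median over all tested genes was 0.01. The 6 helicase genes stayed negative with equal totals, while Mcm4 turned to 0.0069 without CBR-5884 library 4 and to 0.0020 without DMSO library 2.

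**Figure D3:**
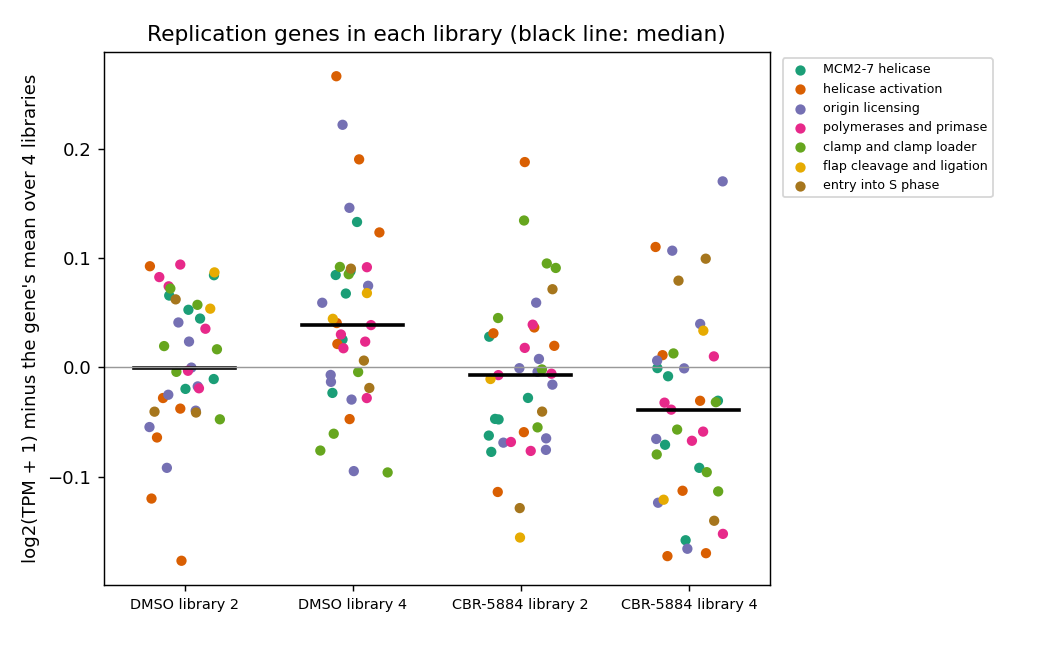
Deviation of each replication gene from its own mean over the 4 libraries, in log2(TPM + 1), for each library (1 point per gene, coloured by role), with the median as a black line. The medians of DMSO library 2 and CBR-5884 library 2 lie at 0.00 and −0.01, and those of DMSO library 4 and CBR-5884 library 4 at 0.04 and −0.04.

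Genes with and without an E2F match in a window were set side by side. For Mcm3, Cdt1, Pold1 and Lig1 every match lay after the start site. Over all tested genes 52.8% had a negative fold change. Of the 13 with a match 11 had a negative fold change, and their median was −0.11 (−0.17 to 0.06). Among the 16 with a window and no match 9 were negative, and their median was −0.04 (−0.19 to 0.11). Of the 8 without a window, Mcm4 among them, 7 were negative, and their median was −0.06. Mcm2, the lowest gene of the set, belongs to those without a match, and Rfc3, with a match on each strand at its start site, was positive at 0.06. Of the helicase genes, Mcm3, Mcm5, Mcm6 and Mcm7 had a match and Mcm2 had a window without one, so the split was not independent of role. A missing match, too, describes the letters only. The medians are a description and were not tested, and the levels of both groups were close, with median TPM of 102 and 112.

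Other genes of DNA replication were described from lists grouped by function, with positive and negative members in all but 1 list. Of 34 other fork and origin factors 26 had a negative fold change (52.8% of all tested genes), with a median of −0.05. Without overlap 9 lay lower and 3 higher (17.7 and 13.6% of all tested genes), and with limma 0 passed the adjusted threshold. Top2a, the topoisomerase that untangles copied strands and the most abundant of them, had 342 and 344 TPM with DMSO and 328 and 331 TPM with CBR-5884. An unadjusted p under 0.05 was found for 1 of the 34, against 3.66% of all tested genes. This was Rnaseh2c, a subunit of the enzyme that removes ribonucleotides from DNA (limma unadjusted p = 0.0341, adjusted p = 0.998). It had 90.8 and 67.6 TPM against 62.6 and 53.4 TPM, and 22.4% of its words are shared with Kat5 on the other strand.

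The 3 Mcm family members outside the ring, which serve recombination and meiosis, all had positive fold changes that were small beside their spread. Mcm8 had 49.4 and 44.5 TPM with DMSO and 52.2 and 48.4 TPM with CBR-5884, Mcm9 had 49.6 and 36.9 TPM against 50.9 and 40.1 TPM, and Mcmdc2 had 10.1 and 5.21 TPM against 6.67 and 10.7 TPM. In each of the 3 the groups overlapped.

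Regulators of the G1 to S transition held the 2 largest differences on the log2(TPM + 1) scale among the genes of the 6 related lists. Of 21 regulators 9 were negative and 12 positive (median 0.05), where 52.8% of all tested genes were negative. An unadjusted p under 0.05 with limma was found for 2 of them, against 3.66% of all tested genes. E2f2, another activating E2F (chromosome 4, 136172394 to 136196057), had 7.51 and 7.67 TPM with DMSO and 4.18 and 4.37 TPM with CBR-5884, a log2 fold change of −0.70 (SE 0.19, limma unadjusted p = 0.0108, adjusted p = 0.998). Both CBR-5884 libraries lay well below both DMSO libraries, at a level far under that of E2f1. Cdkn1b, an inhibitor of the cyclin E kinase (chromosome 6, 134920401 to 134925513), had 6.52 and 4.51 TPM against 8.38 and 8.76 TPM, a log2 fold change of 0.57 (limma unadjusted p = 0.0432, adjusted p = 0.998). Tfdp1, the partner of E2F proteins and the most abundant of the list, had 298 and 282 TPM against 271 and 272 TPM.

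Genes that supply deoxynucleotides and genes of the replication checkpoint also stayed without an adjusted call. Of all tested genes 52.8% had a negative fold change. Of 11 supply genes 7 were negative, with a median of −0.06, and Dctpp1, which clears dCTP and is the most abundant, had 280 and 270 TPM with DMSO and 283 and 245 TPM with CBR-5884. Of 15 checkpoint and fork protection genes 9 were negative, with a median of −0.01. In this list 2 genes, Atrip and Hus1, had an unadjusted p under 0.05 with limma (adjusted p = 0.998), both lower with CBR-5884. Over all tested genes 3.66% had such a p, 2.15% of them lower and 1.51% higher. Chek1, a checkpoint kinase and the most abundant of the list, had 138 and 150 TPM against 146 and 133 TPM, with overlap. Atrip, the partner of the checkpoint kinase Atr, had 63.4 and 58.4 TPM against 53.1 and 42.4 TPM, and 14.9% of its words are shared with Trex1, which overlaps it. Hus1, part of the checkpoint clamp, had 36.1 and 31.4 TPM against 24.4 and 28.6 TPM.

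Mitotic genes, which mark the next stage of the cycle, had 14 of 19 negative fold changes, where 52.8% of all tested genes were negative, and their median was −0.02 (−0.11 to 0.10). Without overlap 6 of the 19 lay lower and 0 higher, against 17.7 and 13.6% of all tested genes. Among tested genes in the range of levels of the 37 replication genes these shares were 20.5 and 11.3%. For the 37 replication genes themselves they were 29.7 and 2.7%. The lower side was thus not particular to the 37, of which 27 were negative. Negative fold changes were found for 26 of the 34 other fork and origin factors too, and for 9 of the 21 G1 to S regulators. Ccnb1, the mitotic cyclin and the most abundant of them, had 439 and 448 TPM with DMSO and 410 and 465 TPM with CBR-5884.

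**Figure D4:**
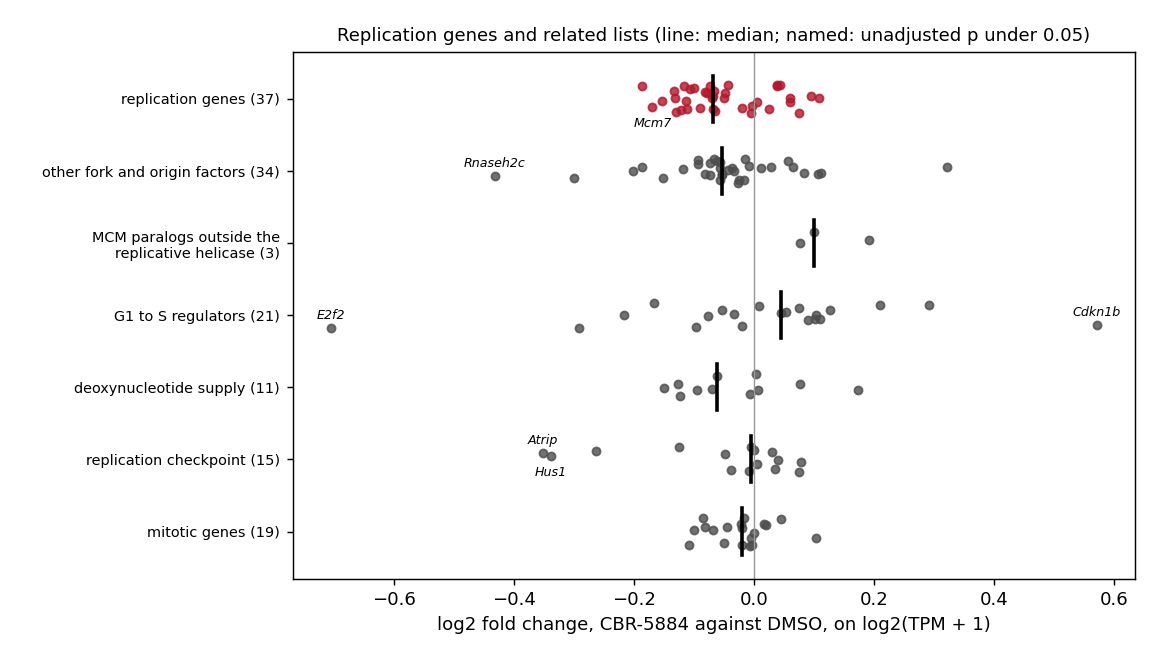
Log2 fold change of each gene with CBR-5884 against DMSO for the 37 replication genes (red) and 6 related lists (grey), with the median of each list as a black line and names for genes with an unadjusted limma p under 0.05. The medians lie between −0.07 for the replication genes and 0.10 for the Mcm family members outside the ring, and E2f2 and Cdkn1b lie farthest from 0.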

How the data were processed

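RNA was measured in 4 libraries, 2 per condition. Per the labels' protocols libraries came from 100 ng of total RNA with a TruSeq kit. The tools fastp and kallisto and the build mm10 are named, per the submitters' processing notes, and no versions are stated in the sources used here. The authors deposited 2 signal columns at gene level, TPM and scaled reads per base. The table has lines for 117403 transcripts that carry the value of their gene, and a single line was used for each gene and library. Depth was inferred from the most common low value of single-transcript genes. Only 47.3 to 49.0% of their low values (up to 20 reads) were whole multiples at a tolerance of 0.05, so whole reads were not recovered and no count test was run.

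Genes with a mean of at least 1 TPM (14920) were fitted on the log2(TPM + 1) scale by limma 3.58.1 with a trended prior (R 4.3.3), in two-sided tests with Benjamini-Hochberg adjustment and calls under 0.05. This pseudocount understates the change of low genes. The fit was tested on simulated data with planted changes larger than any difference of the replication genes, so that test does not bear on differences of their size. An exact permutation test of 2 against 2 cannot go below p = 0.33. Libraries were matched to labels by condition only, and which labelled replicate each one is was not resolved.

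All 37 members are named, and from each related list the most abundant gene and those with an unadjusted p under 0.05. A gene of 1 related list is not reported here. Mcm9 and Mcmdc2 were added to complete their list of 3. The members and lists were chosen with earlier results of these data known. Positions, transcripts and 31-base words come from GENCODE M21 on GRCm38, which is mm10, for 116337 transcripts, and are 1-based. Promoter windows come from RefSeq. Alternatives covered pseudocount, filter, measure, scaling, variance, libraries left out and a block.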

Additional observations from a re-analysis of the deposited data

How the results depend on the processing

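No replication gene was called at an adjusted p under 0.05 with limma in any alternative run. Over all genes the count was 0 except with robust variance estimates, which called 1 gene listed by its identifier only, and with scaled reads per base, which called 1, Hspa1b. The median log2 fold change of the 37 genes was −0.041 with equal TPM totals and −0.075 to −0.028 when each library was left out in turn, and 9 to 13 of the 37 were then positive. Mcm7 had an unadjusted limma p of 0.0422 to 0.156 over the alternatives, at a log2 fold change of −0.18 to −0.14. Of the 37 genes 18 kept their direction in every alternative run. Direction turned with equal totals for Gins2 (0.023), Orc5 (0.022) and Pold1 (0.0064), and for Orc6 with equal medians (−0.0068) and with scaled reads (−0.00019). With a library left out, ranges crossed 0 for 19 genes: −0.011 to 0.13 for Ccne1, −0.15 to 0.055 for Ccne2, −0.00020 to 0.085 for Cdc45, −0.29 to 0.027 for Cdc6, −0.17 to 0.037 for E2f1, −0.075 to 0.23 for Gins1, −0.13 to 0.12 for Gins2, −0.31 to 0.13 for Mcm10, −0.092 to 0.0069 for Mcm4, −0.22 to 0.0060 for Orc1, −0.050 to 0.13 for Orc2, −0.0036 to 0.052 for Orc3, −0.028 to 0.22 for Orc4, −0.062 to 0.052 for Orc5, −0.021 to 0.032 for Orc6, −0.15 to 0.011 for Pcna, −0.049 to 0.0076 for Pold1, −0.0021 to 0.12 for Rfc3, −0.077 to 0.15 for Rfc5. The causes were not tested. Same-numbered libraries deviated together weakly (correlation 0.20 across 14920 genes), a hint from 2 pairs that the design does not state. With the library number as a replicate block the median was −0.07, 10 genes were positive and 0 genes were called.

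Taken as reads, the estimates would give counting errors of 0.84 to 6.54%, highest for Ccne1, whose means differed by 4.52%. They are rough for genes with several transcripts. With 2 libraries per condition, the 95% interval of a replication gene reached ± 0.21 on the log2 scale in the median.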
